A study of Mus musculus with 9 samples.

Results

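Cholesterol synthesis, uptake and efflux were followed in mouse embryoid bodies (EBs) through 33 genes of the 55471 in the count table. The genes were listed by function: enzymes that build cholesterol from acetyl-CoA, the proteins that control sterol regulatory element-binding proteins (SREBPs), sterol carriers, and the liver X receptors (LXRs) with their targets. The members were chosen by function with the fold changes of all 3 contrasts between these libraries already known, and with no threshold on them, so the counts and calls given here describe these genes and are not independent evidence on them. By textbook knowledge 21 members were placed in an SREBP-driven class, 4 in an LXR-driven class and 8 in neither.

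EBs are aggregates that embryonic stem (ES) cells form when they start to differentiate. RNA was sequenced from 9 libraries in 3 groups of 3, all from EBs after 3 days of differentiation. The WT group came from the wild-type E14 mouse ES cell line, the KO group from Tnfaip2-/- E14 cells, and the KO_PAPC group from Tnfaip2-/- EBs that received 8 μM palmitic acid and 8 μM palmitoyl-L-carnitine, called PA/PC here. The KO cells were 1 CRISPR clone with an early stop codon, so loss of *Tnfaip2* and other properties of that clone cannot be told apart. Treated and untreated EBs also differed, by the methods, in the medium in which the EBs were formed, and this cannot be told apart from PA/PC. The study's methods call the 3 libraries of a group biological replicates, and those of KO and KO_PAPC were separate pools of EBs. The labels do not say whether they came from separate cultures, and the p-values measure the spread between these libraries.

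Total counts lay between 27362913 and 28914312 per library. *Tnfaip2* itself held 6 to 16 counts in WT libraries, 5 to 8 in KO and 14 to 25 in KO_PAPC, too few to check the labels. Of the markers of differentiating tissue, all 12 genes of primitive and visceral endoderm were lower in KO_PAPC than in KO. Their summed level was 1080 to 1152 CPM in WT, 567 to 572 in KO and 99.8 to 102 in KO_PAPC. In KO against WT 10 of the 12 were lower. *Ttr* was higher, with means of 8.89 CPM in WT and 12.6 in KO, and so was *Afp*, with 4.57 and 10.6. All 8 pluripotency markers were higher in KO than in WT and lower in KO_PAPC than in KO, with sums of 1800 to 1823 CPM in WT, 3491 to 3495 in KO and 1542 to 1546 in KO_PAPC. The 5 neuroectoderm markers moved the other way, with sums of 322 to 326 CPM in WT, 83.2 to 87.7 in KO and 637 to 657 in KO_PAPC. The largest part of these sums was *Vim*, at means of 197, 48 and 416 CPM in the same order, and all 5 genes moved in the same directions. Of the liver markers, *Serpina1a* and *Cyp3a11* were at 0 in all 9 libraries, the sum of all 4 did not exceed 0.965 CPM in any library, and of the macrophage markers *Ptprc* and *Adgre1* were at or near 0. The sum of the 4 macrophage markers, nearly all of it *Cd68*, was 12.4 to 14.8 CPM in WT, 16.2 to 17.1 in KO and 7.87 to 8.19 in KO_PAPC. The sums of the remaining lists also joined genes that moved in opposite directions. Mesoderm markers summed to 70.3 to 74.4, 46.2 to 46.9 and 54.4 to 57.5 CPM, and fibroblast markers to 8.35 to 8.80, 15.5 to 17.1 and 12.1 to 13.8 CPM, in the same order. In KO_PAPC against KO, 3 mesoderm genes were higher, with *T* at a mean of 0.281 CPM in KO and 16.7 in KO_PAPC, and 3 were lower, with *Pdgfra* at 12.8 and 2.53. Of the fibroblast markers *Thy1* was lower, at 11.1 CPM in KO and 5.22 in KO_PAPC, while *Col1a2* and *Col3a1* were higher and *Lum* was at 0 in the KO libraries. The part that these cell type shifts had in the results that follow was not tested. In bulk RNA a smaller number of cells of one type and less RNA per cell cannot be told apart.

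Cells make cholesterol from acetyl-CoA through the mevalonate pathway, which runs to farnesyl diphosphate, squalene and lanosterol, and a last series of steps turns lanosterol into cholesterol. The genes of these enzymes are classical targets of SREBP2, a membrane-bound transcription factor. When sterols are plentiful, SREBP2 and its escort protein SCAP are held in the endoplasmic reticulum by INSIG proteins. When sterols are scarce, the complex moves to the Golgi apparatus, where proteases release the part that enters the nucleus. LXRs are nuclear receptors activated by oxysterols, and their best-known targets export cholesterol or limit its uptake. The SREBP and LXR programmes are therefore usually described as opposites.

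RefSeq promoter windows (build GRCm38.p6, 250 bases before to 50 after each transcript start) were matched by symbol for 27 of the 33 members, among them 17 SREBP-driven and 3 LXR-driven genes. Windows for *Abcg1*, *Fdft1*, *Fdps*, *Npc1*, *Sqle* and *Stard4* were not used here. Both strands were searched for 4 motifs: the sterol regulatory element TCACNCCAC, a shorter form of it, TCACNCCA, which every match of the longer form also matches, the NF-Y box CCAAT, and the DR4 element of LXRs, read as GGTNA and GGTCA in the same direction with 5 bases of any kind between them. In the plot of motif positions, NF-Y boxes lay in nearly every SREBP-driven promoter. Of these 17 promoters, 16 held CCAAT, *Acat2* being the exception, against 41.1% of the promoters of all 27025 genes with windows. CCAAT also lay in 2 of the 3 LXR-driven windows and in 3 of the 7 windows of members in neither class. *Hmgcs1* alone of the 17 held the long sterol element, which occurred in 1.44% of all promoters. *Hmgcs1*, *Msmo1* and *Srebf2* held the short form, which occurred in 4.97%. The DR4 element lay in the windows of *Abca1* and *Srebf1*, 2 of the 3 LXR-driven genes with windows, in none of the SREBP-driven ones, and in 0.226% of all promoters. These matches describe the letters of the windows and show no binding. The classes rest on textbook knowledge, so the shares are not independent evidence for them.

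**Figure D1:**
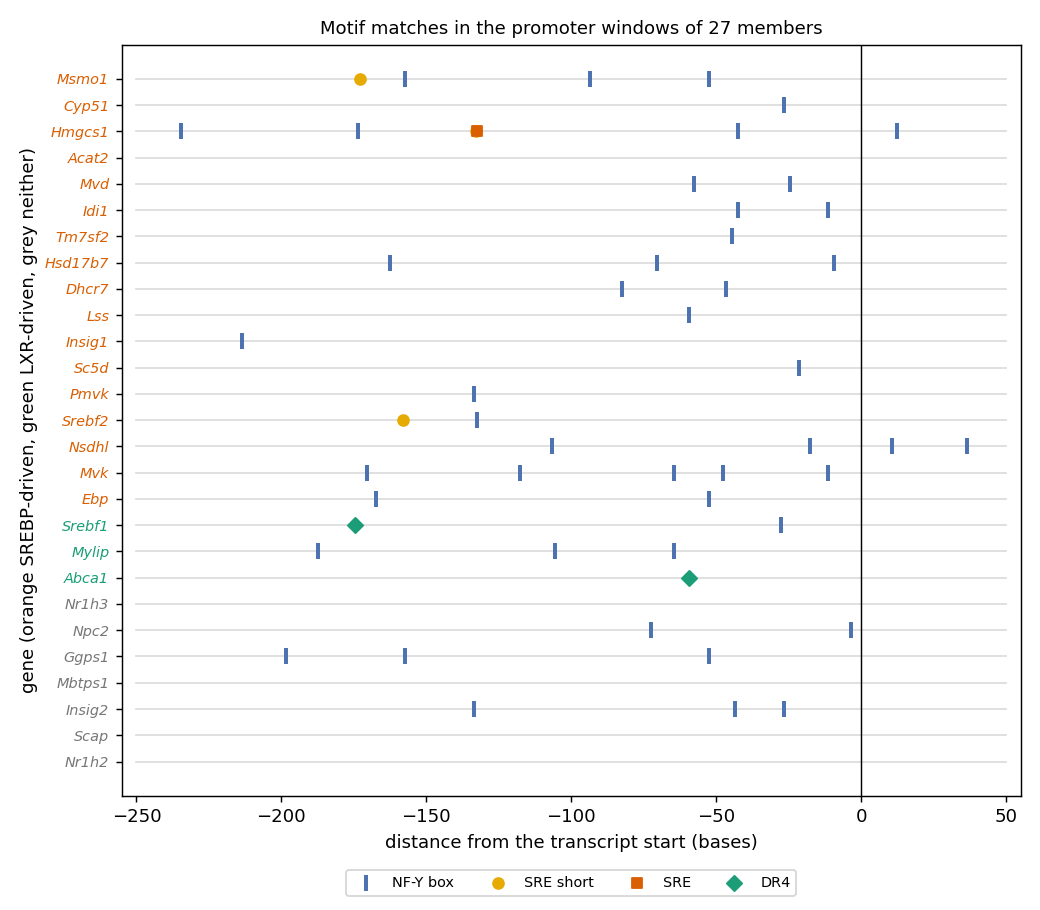
Positions of motif matches in the RefSeq promoter windows of 27 members. The x axis gives the distance from the transcript start in bases, each grey line is 1 gene, and markers show NF-Y boxes, the short and long sterol regulatory elements, and DR4 elements; for genes with several windows 1 is drawn, for *Srebf1* the one with DR4. NF-Y boxes lie in 16 of 17 SREBP-driven promoters, and DR4 elements lie in *Abca1* and *Srebf1*.

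The promoter stretches that carry these motifs are shown for 6 members, read 5′ to 3′ in the direction of the gene, with the matches in capitals. *Hmgcs1*, *Srebf2* and *Msmo1* are shown for their sterol elements, and *Abca1* and *Srebf1* for their DR4 elements. *Ebp*, with 2 NF-Y boxes, is shown because it moved against its class. Capitals mark sterol elements and NF-Y boxes (CCAAT, or ATTGG on the opposite strand) in *Hmgcs1* and *Srebf2*, the sterol element alone in *Msmo1*, NF-Y boxes in *Ebp* and DR4 in *Abca1* and *Srebf1*. The stretch of *Msmo1* is kept short because it lies in the first exon of an annotated transcript.
Hmgcs1 (chr13:119690102-119690322, plus strand, bases -249 to -29 from the start): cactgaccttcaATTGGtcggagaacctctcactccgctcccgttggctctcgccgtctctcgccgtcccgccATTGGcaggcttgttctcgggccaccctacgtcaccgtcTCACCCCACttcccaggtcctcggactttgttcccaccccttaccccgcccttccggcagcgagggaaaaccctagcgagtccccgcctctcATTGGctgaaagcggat
Srebf2 (chr15:82147095-82147150, plus strand, bases -174 to -119 from the start): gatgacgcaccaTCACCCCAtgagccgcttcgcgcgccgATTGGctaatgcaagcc
Msmo1 (chr8:64733738-64733767, minus strand, bases -189 to -160 from the start): gtctcactattcTCACTCCAtccgcgcagc
Ebp (chrX:8193551-8193694, minus strand, bases -182 to -39 from the start): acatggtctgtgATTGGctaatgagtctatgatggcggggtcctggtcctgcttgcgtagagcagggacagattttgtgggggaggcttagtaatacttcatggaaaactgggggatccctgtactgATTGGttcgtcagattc
Abca1 (chr4:53159936-53159974, minus strand, bases -79 to -41 from the start): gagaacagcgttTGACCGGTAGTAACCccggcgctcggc
Srebf1 (chr11:60210627-60210665, minus strand, bases -194 to -156 from the start): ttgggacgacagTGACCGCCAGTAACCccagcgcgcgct

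Levels are given as normalised CPM, that is read counts scaled to a common library size (CPM) with TMM factors over the 9 libraries, in the order of the replicate numbers. Differences are edgeR log2 fold changes with their SE, and genes were called where the adjusted p, taken over all genes tested, fell under 0.05. All 33 members passed the filter on low counts in each contrast. The contrasts share libraries, and their values stand side by side without being compared as independent results.

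With PA/PC most SREBP-driven members rose and 3 of the 4 LXR-driven members fell. In KO_PAPC against KO, 25 members were called higher and 5 lower, while 81.8% of all genes tested were called, 39.6% higher and 42.2% lower. The groups did not overlap for 30 members, against 82.2% of all genes. Of the SREBP-driven members, 20 of 21 were higher, with a median log2 fold change of 0.76 against -0.017 over all 17167 genes tested, and *Ebp* was lower. Of the LXR-driven members, *Abca1*, *Abcg1* and *Mylip* were lower and *Srebf1* was not called, with a median of -1.67. The SREBP-driven median lay 2.42 above the LXR-driven one on the log2 scale, a difference that does not depend on how libraries are scaled. Scaling by library totals lowered the median of all genes by 0.17 and gave 22 members higher and 8 lower.

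In KO against WT the members split, with 12 called higher and 16 lower, where 73.8% of all genes were called, 36.8% higher and 37.1% lower. The groups did not overlap for 26 members, against 75.3% of all genes. The SREBP-driven class had 7 higher and 10 lower members and a median log2 fold change of -0.055, beside -0.0059 over all 17355 genes. All 4 LXR-driven members were called higher, with a median of 0.40. The calls of *Srebf1* (0.12, with overlapping groups) and *Abca1* (0.17) did not hold when some single libraries were left out. In KO_PAPC against WT, 23 members were called higher and 6 lower, against 34.2% and 36.4% of all genes and 70.6% called in all. The groups did not overlap for 28 members, against 72.6% of all genes. There the SREBP-driven class had 20 higher and 1 lower member with a median of 0.70, and the LXR-driven class had 1 higher and 3 lower with a median of -0.82, beside -0.017 over all genes. Scaling by library totals gave 21 higher and 9 lower members in that contrast. Calls with a log2 fold change of at least 1 were made for 0 of the 21 SREBP-driven and 1 of the 4 LXR-driven members in KO against WT, where 8.86% of all genes had one. In KO_PAPC against KO, 6 SREBP-driven members were higher by as much, beside 9.4% of all genes, and 3 LXR-driven members were lower by as much, beside 18.4%. In KO_PAPC against WT, 2 SREBP-driven members were higher by as much, beside 2.25% of all genes, and 1 LXR-driven member was lower by as much, beside 11.4%.

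**Figure D2:**
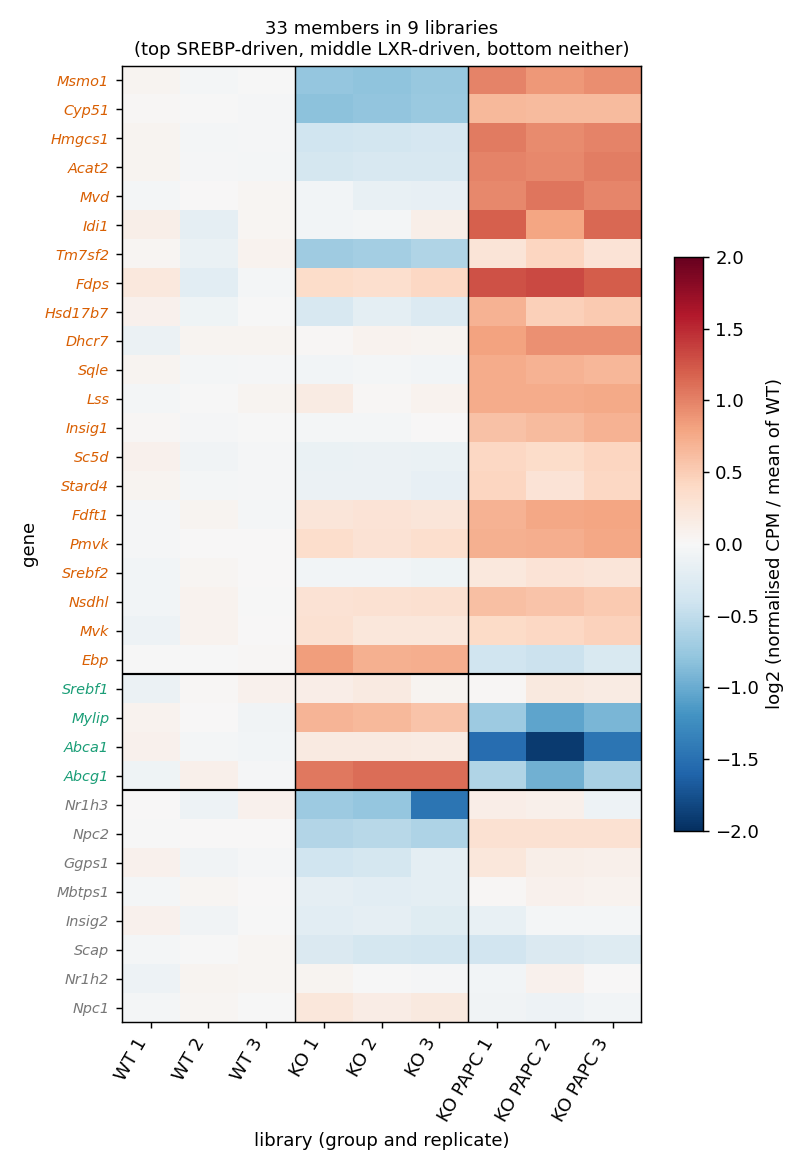
The 33 members (rows) in the 9 libraries (columns), coloured by log2 of normalised CPM over the mean of WT, red for higher and blue for lower. SREBP-driven members are red in all 3 KO_PAPC libraries except *Ebp*, and *Mylip*, *Abca1* and *Abcg1* are red in KO and blue in KO_PAPC.

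**Figure D3:**
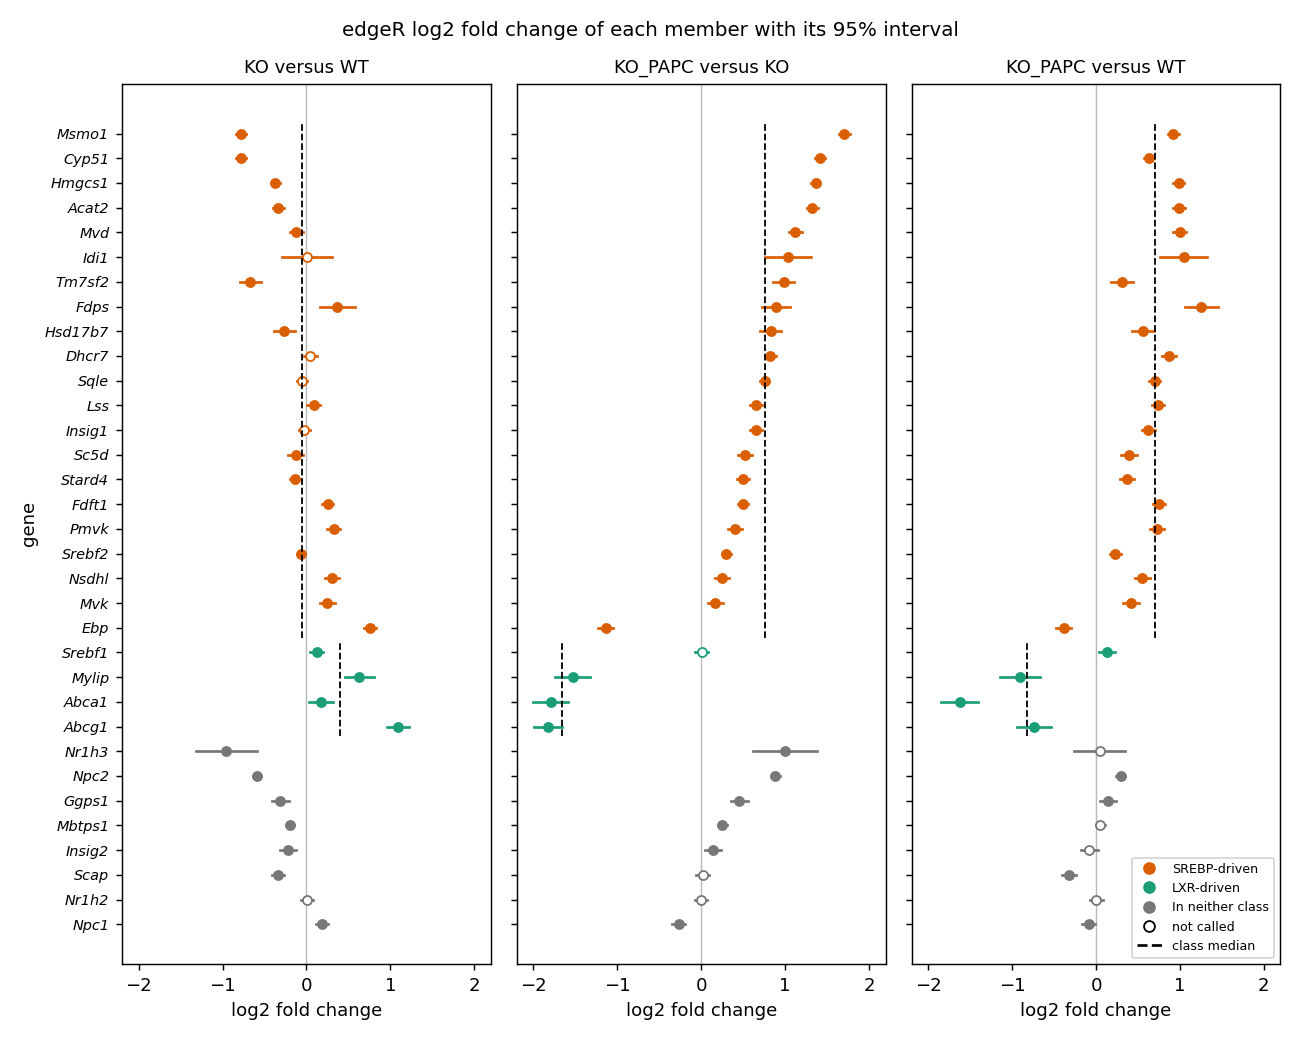
edgeR log2 fold change of each member with its 95% interval in the 3 contrasts, SREBP-driven in orange, LXR-driven in green, neither in grey. Open circles were not called, and dashed lines are class medians, 0.76 and -1.67 in KO_PAPC against KO.

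The first enzymes, from acetyl-CoA to isoprenoids, were all called higher in KO_PAPC than in KO, 8 of 8 genes, with a median log2 fold change of 0.96. *Hmgcs1* (ENSMUSG00000093930, chr13:119690379-119708260, plus strand), which makes HMG-CoA, had the highest level per length of all members in KO_PAPC, at 109.8 CPM per kilobase of exon (RPKM) against 55.1 in WT. The WT libraries held 264, 247 and 248 CPM of *Hmgcs1*, the KO libraries 191, 196 and 199.8, and the KO_PAPC libraries 522, 488 and 503. The 3 groups did not overlap, with KO lowest and KO_PAPC highest. An antisense gene, *Gm48342*, overlaps 12.1% of its exon bases. Its log2 fold change was -0.37 ± 0.0269 in KO against WT (edgeR adjusted p = 2.18e-14), 1.36 ± 0.0277 in KO_PAPC against KO (adjusted p = 3.79e-32) and 0.99 ± 0.0319 in KO_PAPC against WT (adjusted p = 7.04e-19).

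*Acat2*, the cytosolic thiolase that joins the first acetyl-CoA units, was at 78.3, 74.8 and 74.1 CPM in the WT libraries, 59.3, 60.6 and 60.7 in KO and 150.2, 148 and 154 in KO_PAPC. Its groups lay in the same order as those of *Hmgcs1*, without overlap. The log2 fold changes were -0.33 ± 0.0339, 1.32 ± 0.0323 and 0.99 ± 0.0344 in KO against WT, KO_PAPC against KO and KO_PAPC against WT. Of the 51-base words in *Acat2* transcripts 38.9% also occur in other genes, most with *Acat3*. Reads that map to several places were not counted, so the level of *Acat2* is uncertain. *Mvd*, which decarboxylates mevalonate diphosphate, held 58.3, 60.4 and 61.5 CPM in the WT libraries, 58, 54 and 53.7 in KO and 117, 126 and 118 in KO_PAPC. It was 1.12 ± 0.0372 higher on the log2 scale in KO_PAPC than in KO, and the small difference between KO and WT was -0.12 ± 0.0375 (edgeR adjusted p = 0.00398).

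*Idi1* and *Fdps* had the lowest levels per length of the SREBP-driven members, at 0.638 and 1.14 RPKM in WT. *Idi1*, the isomerase of the isoprene units, held 2.44, 1.97 and 2.3 CPM in the WT libraries, 2.16, 2.17 and 2.43 in KO and 5.09, 3.88 and 4.95 in KO_PAPC. WT and KO overlapped, and KO_PAPC lay above both, by 1.04 ± 0.134 over KO. *Fdps*, which makes farnesyl diphosphate, held 5.55, 4.16 and 4.66 CPM in the WT libraries, 6.21, 6.05 and 6.36 in KO and 11.5, 12 and 11 in KO_PAPC. It was called higher in each step, by 0.37 ± 0.101 in KO against WT and 0.89 ± 0.081 in KO_PAPC against KO, and its log2 fold change in KO_PAPC against WT, 1.26 ± 0.0952, was the largest of the members in that contrast. Of their words 25.2% (*Idi1*) and 26.1% (*Fdps*) occur in other genes, and reads that map to several places were not counted, so both levels are uncertain.

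The mevalonate kinases changed less. *Mvk* rose from 36.2 ± 1.08 CPM (mean ± SD, n = 3) in KO to 40.8 ± 1.17 in KO_PAPC, a log2 fold change of 0.17 ± 0.0439 that was not called with library totals (0.0016). *Pmvk* rose from 46.5 ± 1.08 to 61.6 ± 1.35 CPM (0.40 ± 0.0386). Both were also higher in KO than in WT, by 0.25 ± 0.0464 and 0.33 ± 0.0395. *Ggps1*, which draws farnesyl diphosphate off to geranylgeranyl diphosphate, had means of 40.7 ± 2.31, 32.9 ± 2.51 and 45.2 ± 2.04 CPM in WT, KO and KO_PAPC. Its log2 fold change was 0.46 ± 0.049 against KO and 0.14 ± 0.0484 against WT, the latter turning to -0.023 with library totals.

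The enzymes from squalene to lanosterol, 3 of 3, were higher in KO_PAPC than in KO. *Fdft1*, squalene synthase, had means of 87.2 ± 3.0, 104 ± 1.34 and 147 ± 4.83 CPM in WT, KO and KO_PAPC. *Sqle*, the squalene epoxidase, had means of 140.1 ± 5.07, 135 ± 0.998 and 229 ± 6.45 CPM. *Lss*, the cyclase that forms lanosterol, had means of 66 ± 2.06, 70.1 ± 3.48 and 111 ± 1.06 CPM. Their log2 fold changes in KO_PAPC against KO were 0.50 ± 0.0309, 0.76 ± 0.0288 and 0.66 ± 0.0349, close to the class median of 0.76 or below it. *Fdft1* shares 26.3% of its words with other genes, mainly its neighbour *Ctsb*.

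The steps from lanosterol to cholesterol held, in KO_PAPC against KO, both the largest rises and the only fall of the SREBP-driven class. In KO_PAPC against KO, 7 of 8 genes were called higher, and in KO against WT 5 were lower and 2 higher. *Msmo1* (ENSMUSG00000031604, chr8:64718139-64733792, minus strand), the sterol C4-methyl oxidase, held 159, 149.9 and 153 CPM in the WT libraries, 89.7, 88 and 91.4 in KO and 305, 281 and 294 in KO_PAPC. It had the largest rise of all 33 members, 1.71 ± 0.0314 on the log2 scale (edgeR adjusted p = 1.68e-33) or 3.26 times the KO level, after -0.78 ± 0.0297 in KO against WT. *Cyp51* (chr5:4081145-4104746, minus strand), the lanosterol 14α-demethylase, held 167, 163 and 161 CPM in the WT libraries, 92.9, 95.1 and 98.3 in KO and 256, 254 and 254 in KO_PAPC. Its log2 fold changes were -0.78 ± 0.0288 in KO against WT, 1.41 ± 0.0292 in KO_PAPC against KO and 0.63 ± 0.0292 in KO_PAPC against WT. The lowest KO_PAPC library of both genes lay above the highest WT library, and the highest KO library lay below the lowest WT library.

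*Ebp* (ENSMUSG00000031168, chrX:8185329-8193512, minus strand), the sterol isomerase next in the same series, went the other way at each step. WT libraries held 44.7, 44.9 and 45.8 CPM, KO libraries 80.1, 74 and 74.8 and KO_PAPC libraries 34.4, 33.4 and 36.4. KO was highest and KO_PAPC lowest, without overlap. Its log2 fold change was 0.76 ± 0.037 in KO against WT, -1.14 ± 0.0422 in KO_PAPC against KO (edgeR adjusted p = 5.95e-24) and -0.39 ± 0.0442 in KO_PAPC against WT. *Ebp* is X-linked, and the 660 X-linked genes tested had a median log2 fold change of -0.48 in KO_PAPC against KO, after 0.30 in KO against WT over 673 genes. *Nsdhl*, the other X-linked member and a sterol dehydrogenase, rose in both contrasts, with means of 33.1 ± 1.51, 41 ± 0.481 and 48.9 ± 1.4 CPM in WT, KO and KO_PAPC and log2 fold changes of 0.31 ± 0.0425 in KO against WT, close to the X-linked median, and 0.25 ± 0.0412 in KO_PAPC against KO, of the opposite sign to it. With library totals the second was 0.084 and not called. Medians of other chromosomes also differed. In KO_PAPC against KO they were 0.43 on chromosome 8 (*Msmo1*, *Mvd*), 0.38 on 13 (*Hmgcs1*, *Idi1*) and 0.32 on 17 (*Acat2*) and 12 (*Npc2*). In KO against WT they were -0.23, -0.17, -0.24 and -0.18 in that order. *Mylip* on 13 and *Abcg1* on 17 moved against these medians. Chromosome 5, with *Cyp51*, had medians of -0.11 and 0.049 in the same 2 contrasts. The part of the chromosome shifts in these values was not tested.

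The remaining genes of this series moved with the class. *Tm7sf2*, a sterol reductase that shares exon sequence with its neighbour *Vps51*, had means of 19.8 ± 1.45, 12.5 ± 0.491 and 24.7 ± 1.6 CPM in WT, KO and KO_PAPC. *Hsd17b7*, the ketosteroid reductase, had means of 17.8 ± 0.995, 14.8 ± 0.71 and 26.4 ± 2.09 CPM. Both were lower in KO than in WT, with log2 fold changes of -0.67 ± 0.0628 and -0.26 ± 0.0605, and higher in KO_PAPC than in KO, with 0.98 ± 0.062 and 0.83 ± 0.0615. *Sc5d*, the sterol C5-desaturase, had means of 43.6 ± 2.42, 39.9 ± 0.144 and 57.5 ± 1.46 CPM, and *Dhcr7*, which makes cholesterol from 7-dehydrocholesterol, had means of 63.1 ± 4.15, 65.3 ± 1.18 and 116 ± 4.94 CPM. In KO_PAPC against KO their log2 fold changes were 0.52 ± 0.0398 and 0.83 ± 0.0347, while *Dhcr7* was not called in KO against WT (0.048 ± 0.0384, edgeR adjusted p = 0.261).

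**Figure D4:**
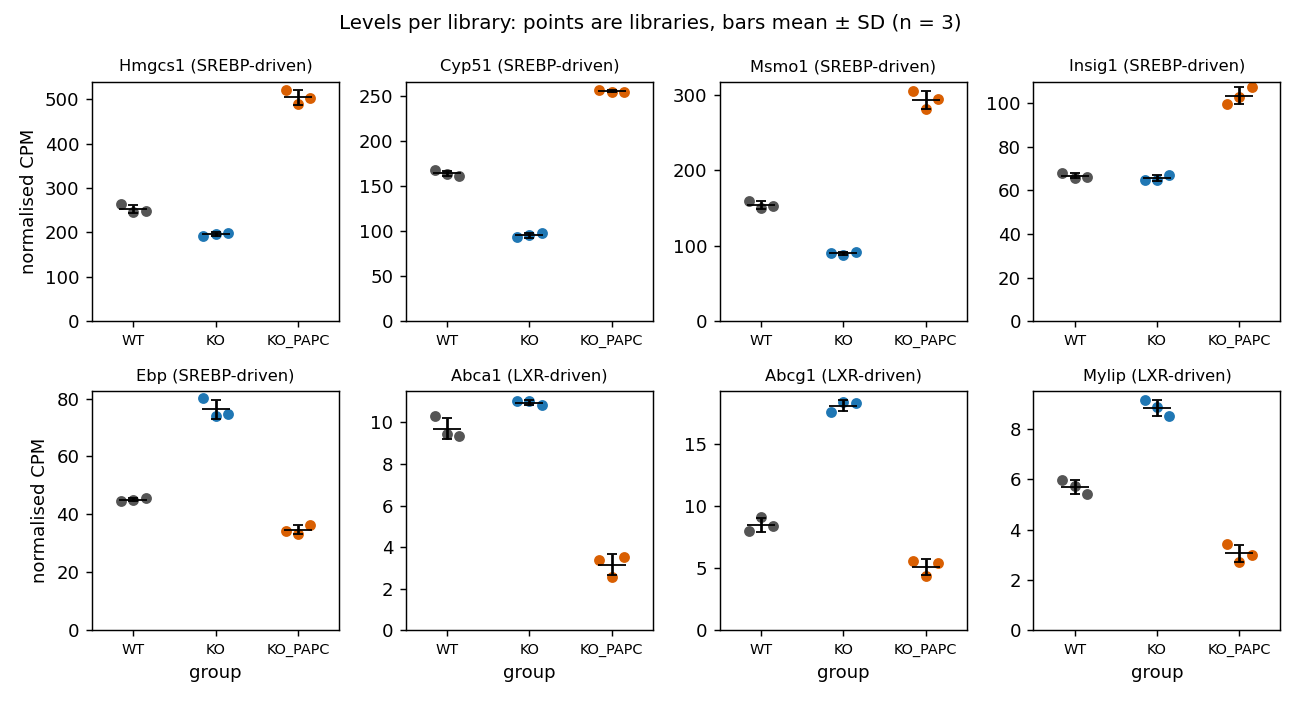
Normalised CPM of 5 SREBP-driven and 3 LXR-driven members in WT, KO and KO_PAPC, with every axis starting at 0. Points are libraries and bars the mean ± SD (n = 3); *Hmgcs1*, *Cyp51* and *Msmo1* are lowest in KO and highest in KO_PAPC, *Insig1* is highest in KO_PAPC while its WT and KO libraries overlap, and *Ebp*, *Abca1*, *Abcg1* and *Mylip* are highest in KO and lowest in KO_PAPC.

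The genes that control SREBPs had a median log2 fold change of 0.20 in KO_PAPC against KO, beside 0.96, 0.66 and 0.83 for the 3 enzyme groups. *Srebf2* (chr15:82147181-82205379, plus strand), which encodes SREBP2, held 292, 314 and 307 CPM in the WT libraries, 294, 294 and 286 in KO and 352, 366 and 359.6 in KO_PAPC. WT and KO overlapped and KO_PAPC lay above both. Its log2 fold change in KO_PAPC against KO was 0.30 ± 0.0257 (edgeR adjusted p = 4.16e-13). *Insig1*, the retention protein whose gene is itself an SREBP target, held 67.9, 65.8 and 66.2 CPM in the WT libraries, 64.8, 64.8 and 67.1 in KO and 99.6, 103 and 107 in KO_PAPC. WT and KO overlapped, with a log2 fold change of -0.025 ± 0.0336 (95% interval -0.094 to 0.043, edgeR adjusted p = 0.501), and KO_PAPC was 0.65 ± 0.0347 above KO. *Insig2*, its homologue outside the SREBP programme, held 37, 33.3 and 34.6 CPM in the WT libraries, 30.1, 30.8 and 29.5 in KO and 31.7, 34.2 and 34.2 in KO_PAPC. It was called lower in KO than in WT (-0.22 ± 0.0461) and higher in KO_PAPC than in KO (0.14 ± 0.0476), the latter turning to -0.026 with library totals.

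*Scap*, the escort protein, held 72.7, 74.5 and 76.5 CPM in the WT libraries, 60.9, 58.6 and 57.9 in KO and 57, 60.9 and 62.1 in KO_PAPC. KO and KO_PAPC overlapped, and both lay below WT, with log2 fold changes of -0.34 ± 0.0343 and -0.32 ± 0.0389. With library totals *Scap* was called lower in KO_PAPC than in KO (-0.15, edgeR adjusted p = 0.000696). The annotated gene 5830462I19Rik overlaps 13.2% of the exon bases of *Scap*, and strand was not recorded. *Mbtps1*, the protease that makes the first cut in SREBPs, had means of 349.6 ± 8.65, 306 ± 3.59 and 365 ± 8.38 CPM in WT, KO and KO_PAPC, and log2 fold changes of -0.20 ± 0.0233 in KO against WT and 0.25 ± 0.0256 in KO_PAPC against KO. *Srebf1*, an LXR target that encodes the SREBP of fatty acid synthesis, held 82.4, 90.8 and 95.1 CPM in the WT libraries, 98.2, 101 and 93.2 in KO and 91.3, 103 and 101 in KO_PAPC. The 3 groups overlapped. The log2 fold change of *Srebf1* in KO_PAPC against KO was 0.0065 ± 0.0375 (95% interval -0.070 to 0.083, edgeR adjusted p = 0.876), with library totals it was called lower (-0.16, adjusted p = 0.000215), and in KO_PAPC against WT it was 0.13 ± 0.0454, which turned to -0.037 with library totals. Gene counts do not separate its isoforms, of which only one is driven by LXRs.

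Of the LXR genes themselves, *Nr1h2*, the widely expressed receptor LXRβ, had means of 111 ± 6.33, 111 ± 3.42 and 112 ± 5.56 CPM in WT, KO and KO_PAPC and was called in no contrast with TMM. Its 95% interval in KO_PAPC against KO ran from -0.069 to 0.070 on the log2 scale. With library totals *Nr1h2* was called lower in KO_PAPC, by -0.17 against KO (edgeR adjusted p = 4.04e-05) and -0.16 against WT (adjusted p = 0.00106), values close to the shift of the median of all genes under that scaling. *Nr1h3*, LXRα, was low, at 0.912 RPKM in WT beside 33 for *Nr1h2*, with means of 2.29 ± 0.143, 1.19 ± 0.307 and 2.38 ± 0.203 CPM. It was lower in KO than in WT (-0.96 ± 0.179) and higher in KO_PAPC than in KO (1.0 ± 0.187).

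The LXR-driven transporters showed the deepest falls among the members. *Abca1* (ENSMUSG00000015243, chr4:53030787-53159895, minus strand), which loads cholesterol onto apolipoproteins at the plasma membrane, held 10.3, 9.46 and 9.35 CPM in the WT libraries, 11, 11 and 10.8 in KO and 3.38, 2.57 and 3.51 in KO_PAPC. KO_PAPC lay below every other library, with log2 fold changes of -1.8 ± 0.101 against KO (edgeR adjusted p = 2.31e-18) and -1.63 ± 0.108 against WT. The difference between KO and WT was 0.17 ± 0.0704 (edgeR adjusted p = 0.0285), and the adjusted p over all alternatives ran from 0.0139 to 0.187. It was not called in DESeq2, without a filter, or without WT replicate 2 or 3 or KO replicate 1 or 2. *Abcg1* (ENSMUSG00000024030, chr17:31057675-31117988, plus strand), which passes cholesterol to lipoproteins, held 7.96, 9.11 and 8.38 CPM in the WT libraries, 17.6, 18.4 and 18.3 in KO and 5.6, 4.35 and 5.38 in KO_PAPC. It was the only member with an absolute log2 fold change of at least 1 in KO against WT, at 1.09 ± 0.0661 (edgeR adjusted p = 2.08e-16), where 8.86% of all genes were called higher by as much, and it fell by 1.83 on the log2 scale in KO_PAPC against KO.

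*Mylip* (ENSMUSG00000038175, chr13:45389742-45412022, plus strand), a ubiquitin ligase that removes lipoprotein receptors, held 5.96, 5.72 and 5.39 CPM in the WT libraries, 9.14, 8.87 and 8.49 in KO and 3.42, 2.73 and 3.0 in KO_PAPC. Its groups lay in the order KO, WT, KO_PAPC without overlap, as did those of *Abca1* and *Abcg1*. Its log2 fold changes were 0.63 ± 0.0833 in KO against WT, -1.53 ± 0.105 in KO_PAPC against KO and -0.90 ± 0.115 in KO_PAPC against WT. Per length these 3 targets were low, at 1.06, 2.48 and 2.73 RPKM in KO and 0.304, 0.70 and 0.944 in KO_PAPC.

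The sterol carriers were split. *Npc2*, the lysosomal protein that binds cholesterol released from lipoproteins, had means of 307 ± 1.68, 205 ± 5.06 and 379 ± 0.305 CPM in WT, KO and KO_PAPC and the highest level per length of all members in WT, at 56.4 RPKM. *Npc1*, its membrane partner, moved the opposite way, with means of 64.8 ± 1.56, 73.8 ± 2.04 and 61.4 ± 1.14 CPM. In KO_PAPC against KO their log2 fold changes were 0.88 ± 0.0263 and -0.27 ± 0.0362. *Stard4*, a soluble sterol carrier and an SREBP target, had means of 80.8 ± 2.62, 73.8 ± 1.51 and 105 ± 6.17 CPM and a log2 fold change of 0.50 ± 0.0367 in KO_PAPC against KO.

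Other genes of the pathway, listed by function, were counted in the same way, to be read against the 81.8% of all genes called in KO_PAPC against KO, 39.6% higher and 42.2% lower. Among 8 further genes of sterol synthesis and the isoprenoid branch, 7 were called higher and 1 lower in KO_PAPC against KO. *Dhdds*, of dolichol synthesis, had a log2 fold change of 0.36 ± 0.0486 in that contrast. Of 7 further genes of sterol control, 5 were higher and 2 lower, and the ubiquitin ligase *Rnf145* had a log2 fold change of 0.65 ± 0.0276. Of 11 further genes of sterol transport, storage and uptake, 5 were higher and 6 lower. *Soat1*, which esterifies cholesterol for storage, went from 120.2 ± 3.01 CPM in KO to 282 ± 5.15 in KO_PAPC (1.23 ± 0.0286). The lipoprotein receptor gene *Vldlr* stood at 44 ± 0.832 CPM in the WT libraries, 4.43 ± 0.449 in KO and 25 ± 0.964 in KO_PAPC.

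Of 4 tested LXR partners and further targets, 1 was higher and 3 lower in KO_PAPC against KO, and *Abcg5* and *Abcg8* were too low to be tested. The partner receptors differed in direction, with a log2 fold change of -0.89 ± 0.0472 for *Rxra* and 0.73 ± 0.0314 for *Rxrb*. Of 10 fatty acid genes known as SREBP1 targets, 6 were higher and 3 lower in KO_PAPC against KO, with a median log2 fold change of 0.14, and in KO against WT 6 were higher and 3 lower, with a median of 0.35, where 36.8% of all genes were higher and 37.1% lower. *Scd2*, a stearoyl-CoA desaturase, had means of 369.6 ± 3.21, 319.7 ± 7.34 and 738 ± 2.56 CPM in WT, KO and KO_PAPC, and *Fads2*, another desaturase, had a log2 fold change of 0.73 ± 0.0275 in KO_PAPC against KO.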

How the data were processed

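Poly(A) RNA from 9 EB samples was sequenced as 51-cycle single-end reads of unstranded libraries. The authors mapped reads to GRCm38 and counted them per gene, without multimapping reads and reads that fell on more than 1 gene, and the deposited values are whole-number read counts without normalization. The submitters' processing notes list bcl2fastq 2.20.0.422, STAR 2.7.2b and featureCounts 1.6.5. The methods describe an earlier pipeline for the first KO and WT analysis, but all 9 columns were deposited together. Symbols, positions and exon lengths were joined from GENCODE M21 of the same build, with 241 of 55471 IDs unmatched. Total counts of 27362913 to 28914312 per library limit precision for low genes: the lowest count of any member was 25. Every replicate pair differed beyond sampling noise.

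Quasi-likelihood F tests were run in edgeR 4.0.16 (R 4.3.3) with TMM and filterByExpr for each pair of groups, without covariates, and p-values were adjusted after Benjamini-Hochberg over all genes tested, with 0.05 as the threshold. CPM after TMM over the 9 libraries and, per kilobase of exon, RPKM were computed from the counts. Reads shared between genes were judged by 51-base words of annotated transcripts. Alternatives were DESeq2 1.42.0, a tool the authors also used, RLE factors, library totals, 2 other filters, a joint fit, a replicate block, each library left out and a tested minimum fold change of 2. Leaving out ambiguous members (at least 10% of words or exon bases shared), values relative to the chromosome median and leaving *Srebf1* out of its class were added after seeing the data.

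The members, lists and tests were chosen with earlier results of these data known. All 33 members are named. Values in every library are given for members called with an absolute log2 fold change of at least 1 in any contrast, for LXR-driven members and for *Srebf2*, *Scap*, *Insig1* and *Insig2*, and at most 2 genes by smallest adjusted p in KO_PAPC against KO are named from each further list, some of which are not reported here. No list was tested, and single values were not permuted, since 3 against 3 libraries cannot give a p below 0.1. Columns of values left unused: 0.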

Additional observations from a re-analysis of the deposited data

How the results depend on the processing

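Over the 3 contrasts, 206 of 231 values under alternatives for the counts of called members and the class medians stayed within the spread between libraries or within 1.5 times the count, and the direction of every class median and of every difference between the classes was kept in all of them. With a tested minimum fold change of 2, the members called higher and lower were 0 and 0 for KO versus WT, and 1 and 1 in KO_PAPC versus WT. In KO_PAPC versus KO 5 were called higher with it, and the count called lower is not given here. The main test called 4 members lower by at least 1 on the log2 scale in KO_PAPC versus KO. Library totals, which lower the median of all genes in the KO_PAPC contrasts, gave 8 lower members in KO_PAPC versus KO, and SREBP-driven medians of 0.59 against KO and 0.53 against WT. Without a filter the SREBP-driven median in KO_PAPC versus KO was 0.78. Without ambiguous members it was 0.65, and 0.62 against WT. Relative to the chromosome median the SREBP-driven medians were 0.73 (KO_PAPC versus KO) and 0.74 (KO_PAPC versus WT), the LXR-driven medians 0.55 (KO versus WT) and -1.97 (KO_PAPC versus KO), and the class differences -0.60, 2.7 and 1.7 in the 3 contrasts. Without *Srebf1* the LXR-driven median in KO versus WT was 0.63 and the class difference -0.69. Leaving out 1 library gave SREBP-driven medians of -0.077 to -0.029 (KO versus WT), 0.74 to 0.79 (KO_PAPC versus KO) and 0.68 to 0.72 (KO_PAPC versus WT), LXR-driven medians of 0.38 to 0.44, -1.73 to -1.56 and -0.90 to -0.73, class differences of -0.47 to -0.44, 2.32 to 2.47 and 1.43 to 1.58, and 10 to 12 higher and 15 to 16 lower members in KO versus WT. The cause of these shifts was not tested where the alternative itself does not show it.

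Reversals of single members were of at most 0.17 on the log2 scale. With library totals the log2 fold changes in KO_PAPC versus KO were -0.16 for *Srebf1*, -0.15 for *Scap*, -0.026 for *Insig2* and -0.17 for *Nr1h2*, and in KO_PAPC versus WT -0.023 for *Ggps1*, -0.037 for *Srebf1*, -0.11 for *Mbtps1*, -0.16 for *Nr1h2* and -0.12 for *Nr1h3*. Of these, *Srebf1*, *Scap* and *Nr1h2* against KO and *Mbtps1* and *Nr1h2* against WT were then called lower, with edgeR adjusted p of 4.04e-05 to 0.00106. Without a filter *Idi1* was -0.0070 and *Nr1h2* -0.0082 for KO versus WT. In KO_PAPC versus KO *Nr1h2* was -0.0030 with a mean of at least 10 counts. Leaving out 1 library gave -0.079 to 0.071 for *Idi1*, -0.011 to 0.072 for *Dhcr7* and -0.044 to 0.033 for *Nr1h2* for KO versus WT, -0.030 to 0.066 for *Srebf1*, -0.00149 to 0.062 for *Scap* and -0.028 to 0.043 for *Nr1h2* in KO_PAPC versus KO, and -0.038 to 0.038 for *Nr1h2* and -0.0056 to 0.11 for *Nr1h3* in KO_PAPC versus WT. Of calls beyond *Abca1*, leaving out a library ended those of *Lss* (WT replicate 1 or 2, KO replicate 1), *Sc5d* (WT replicate 1), *Srebf1* (WT replicate 1, KO replicate 2) and *Srebf2* (WT replicate 2 or 3, KO replicate 2 or 3) for KO versus WT, and those of *Ggps1* (WT replicate 2, KO_PAPC replicate 1), *Srebf1* (WT replicate 1, KO_PAPC replicate 2 or 3) and *Npc1* (5 of the 6 libraries) in KO_PAPC versus WT.

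Samples of the same number did not deviate together, with correlations of -0.0415 to 0.0621, so the numbers were not taken as pairs. With the replicate block the members called higher and lower were 11 and 16 for KO versus WT, 25 and 5 for KO_PAPC versus KO, and 24 and 6 in KO_PAPC versus WT, and *Nr1h2* was at -6.9e-06 in KO_PAPC versus KO.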
